A study of Homo sapiens with 6 samples.

Results

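The 10 genes described here mark fibroblasts without being collagens: the surface receptors PDGFRA, PDGFRB, DDR2 and THY1, the surface protease FAP, the matrix proteins POSTN, FBN1 and FN1, the calcium-binding protein S100A4 and the transcription factor TCF21. They were chosen by symbol, and all 10 were among the 38557 genes listed. Transcripts were counted in cardiomyocytes made from the WTC11 line of human induced pluripotent stem cells, an established line, grown either in RPMI plus B27 (B27 is a serum-free supplement) or in DMEM plus fatty acids. Each medium had 3 libraries, titled as biological replicates, and every library came from this 1 line, labelled WT, with no other treatment named. The labels do not give the composition of the media or the time the cells spent in them. The design asks how transcript levels differ between these media. Libraries held 23232324 to 31035389 gene counts, and a count of 0 allowed a level of up to 0.0967 to 0.129 CPM (gene counts scaled to a common library total), counting error only.

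Fibroblasts make and remodel the matrix of connective tissue, and in the heart they descend largely from the epicardium, where TCF21, a basic helix-loop-helix transcription factor, is required for their formation. PDGFRA and PDGFRB are tyrosine kinase receptors for platelet-derived growth factors, the first typical of resident fibroblasts and the second shared with pericytes and smooth muscle. DDR2 is a tyrosine kinase receptor for fibrillar collagen, and THY1 (CD90) is a glycolipid-anchored surface protein. FN1 (fibronectin) is laid down early in matrix assembly, FBN1 (fibrillin 1) builds microfibrils and POSTN (periostin) is a matricellular protein of developing and injured heart. None of these genes is made by fibroblasts alone.

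FBN1 and POSTN fell in DMEM plus fatty acids, 9.51-fold and 7.75-fold by the fitted fold change (edgeR quasi-likelihood test, adjusted p 0.0402 and 0.0446), while S100A4 and DDR2 overlapped between media. PDGFRB, THY1, FN1 and PDGFRA were lower without overlap between media but did not pass. Of the 9 genes that passed the filter on low counts, 2 were called lower and 0 higher, where 1.07% and 0.292% of the 16107 tested genes were (1.36% in either direction). DESeq2, which took in genes outside this filter, called 6 of the 10 lower and 0 higher. Over all genes it called far more than edgeR, 863 lower and 369 higher. At an unadjusted p under 0.05 there were 6, all lower, beside 9.98% of all tested genes lower and 17.7% in either direction. With the replicate number, shared between media, as a block, 5 were called lower and 0 higher (background 3.42% and 1.36%, together 4.78%), which added PDGFRA, PDGFRB and FN1. When single libraries were left out, FBN1 and POSTN kept their calls only without RPMI plus B27 replicate 3 and lost them in the other 5 fits. Without RPMI plus B27 replicate 1, PDGFRB alone was called.

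The median log2 fold change of the 9 tested genes was -2.57, beside 0.01 for all tested genes, and it was -2.64 over all 10 with FAP at its bound. Single changes ran from -3.63 for PDGFRB to 0.31 for DDR2. Their SD was 1.40 on the log2 scale, against 0.656 over all tested genes. CPM of the media did not overlap for 6 of the 9, each lower in DMEM plus fatty acids, as for 12.8% of all tested genes (25.6% in either direction). In these bulk libraries, fewer cells of a type and less RNA per cell cannot be told apart.

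**Figure D1:**
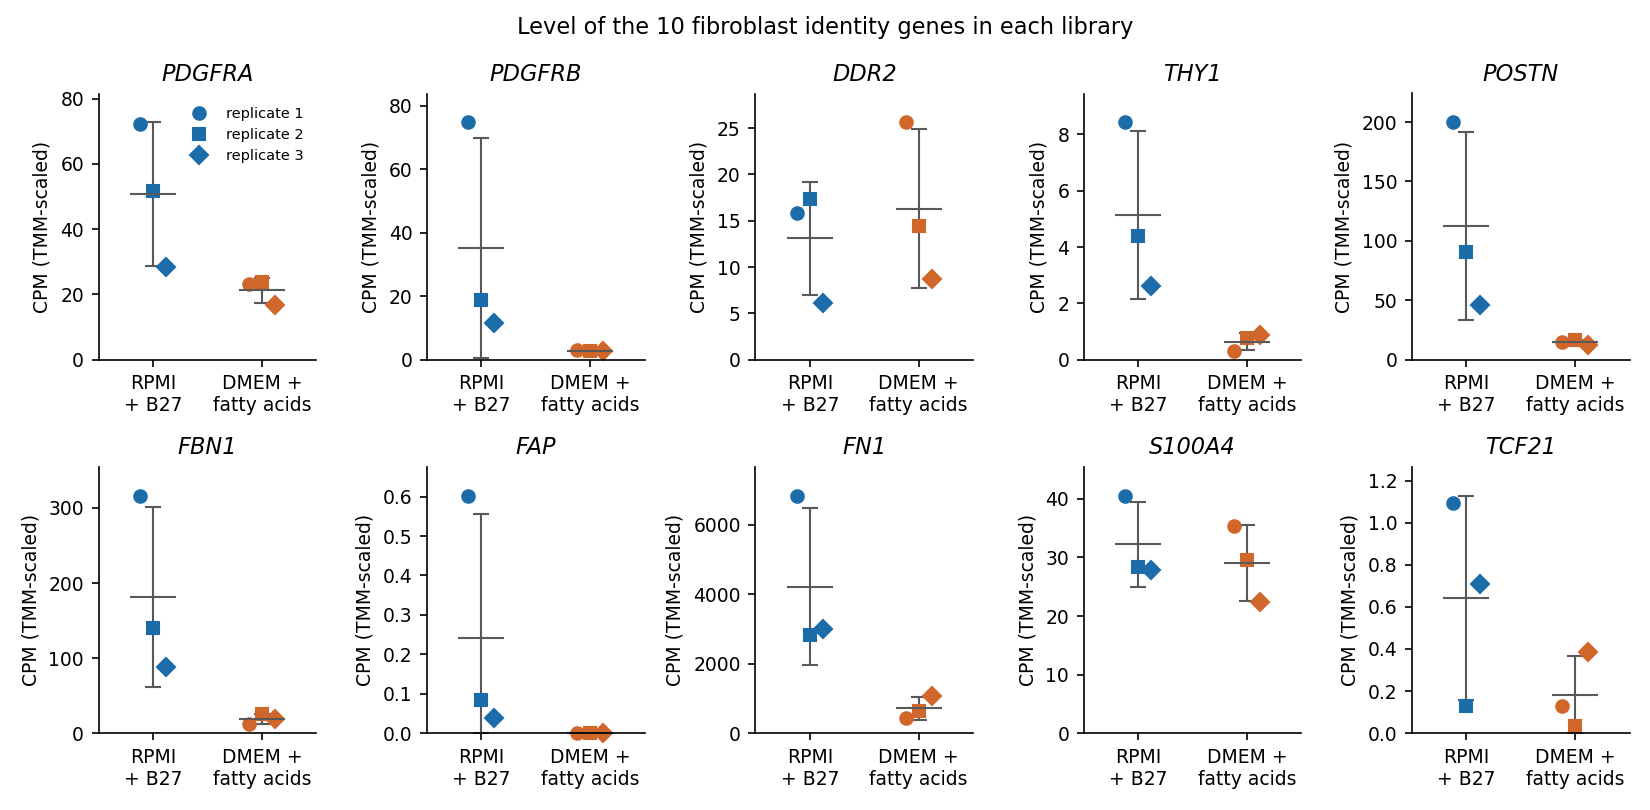
TMM-scaled CPM of each of the 10 genes (one panel per gene, vertical axis from 0) in the 3 libraries of each medium, with markers for the replicate number and bars for mean and SD, cut at 0. The 3 DMEM plus fatty acids libraries lie below all RPMI plus B27 libraries for PDGFRA, PDGFRB, THY1, POSTN, FBN1, FAP and FN1, and overlap them for DDR2, S100A4 and TCF21. For FAP, RPMI plus B27 replicates 2 and 3 (0.0851 and 0.0373 CPM) are under the level that a count of 0 allows, so only replicate 1 is set apart.

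Among the receptors, PDGFRB (chromosome 5, 150113839 to 150155845, minus strand, GRCh38) had the largest fitted difference. It was at 74.9, 18.9 and 11.6 CPM in RPMI plus B27 (replicates 1 to 3) and at 3.01, 2.84 and 2.67 CPM in DMEM plus fatty acids. The RPMI plus B27 libraries spread over 6.44-fold, with replicate 1 far above the others, and the DMEM plus fatty acids libraries over 1.13-fold. Its log2 fold change was -3.63 ± 0.70 (SE), or 12.4-fold lower with a 95% interval of 3.99 to 38.4, and its edgeR adjusted p was 0.0605. With the block its log2 fold change was -3.16 ± 0.48 (adjusted p 0.0269). Without RPMI plus B27 replicate 1 it was -2.43 (edgeR adjusted p 0.0429), and that of FBN1, at -2.58, was then the larger.

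PDGFRA (chromosome 4, 54229293 to 54298245, plus strand) was at 72.3, 51.7 and 28.3 CPM in RPMI plus B27 and at 23.1, 23.7 and 16.8 CPM in DMEM plus fatty acids. The media did not overlap, but the gap between the lowest RPMI plus B27 and the highest DMEM plus fatty acids library was small. Its log2 fold change was -1.26 ± 0.33, a 2.40-fold lower level with an interval of 1.41 to 4.08, and its edgeR adjusted p was 0.117. With the block it was -1.18 ± 0.18 (adjusted p 0.0282). THY1 (chromosome 11, 119415476 to 119424985, minus strand) was at 8.44, 4.38 and 2.61 CPM against 0.301, 0.769 and 0.860 CPM. Every DMEM plus fatty acids library was below 1 CPM, at 7 to 29 counts. Its log2 fold change was -2.97 ± 0.56, with an edgeR adjusted p of 0.0584.

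DDR2 (chromosome 1, 162630863 to 162787405, plus strand) was the exception among the receptors. Its level was 15.8, 17.3 and 6.15 CPM in RPMI plus B27 and 25.7, 14.5 and 8.74 CPM in DMEM plus fatty acids. The media overlapped, and replicate 3 was the lowest library in both. The log2 fold change was 0.31 ± 0.48 (edgeR adjusted p 0.779), with an interval of -0.82 to 1.44 that leaves room for a change of more than 2-fold upward. Its sign turned without RPMI plus B27 replicate 3 (-0.03) and without DMEM plus fatty acids replicate 1 (-0.17).

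The 3 matrix genes were all far lower in DMEM plus fatty acids. FBN1 (chromosome 15, 48408313 to 48645709, minus strand) went from 316.6, 139.6 and 87.5 CPM to 12.4, 25.1 and 19.5 CPM, so that its lowest RPMI plus B27 library was still above its highest DMEM plus fatty acids library. The log2 fold change was -3.25 ± 0.51 (edgeR adjusted p 0.0402). POSTN (chromosome 13, 37562585 to 37598768, minus strand) went from 200, 90.5 and 46.4 CPM to 14.5, 16.3 and 12.7 CPM. Its DMEM plus fatty acids libraries were close together, at a coefficient of variation of 12.6% against 70.4% in RPMI plus B27. The log2 fold change was -2.95 ± 0.50 (edgeR adjusted p 0.0446). In the fits without 1 library, the log2 fold change ran from -3.58 to -2.58 for FBN1 and from -3.32 to -2.24 for POSTN, smallest for both without RPMI plus B27 replicate 1.

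FN1 (chromosome 2, 215360865 to 215436068, minus strand) had the highest level per kilobase of exon of the 10 genes in 5 of the 6 libraries, and S100A4 was above it in DMEM plus fatty acids replicate 1 (34.5 against 24.8 CPM per kilobase). It was at 6846, 2829 and 2994 CPM in RPMI plus B27 and at 429.6, 637.7 and 1072 CPM in DMEM plus fatty acids. RPMI plus B27 replicate 1 stood above the other libraries by more than 2-fold. Its log2 fold change was -2.57 ± 0.47, a 5.92-fold lower level (interval 2.76 to 12.7), with an edgeR adjusted p of 0.0540. With the block it was -2.52 ± 0.50 (adjusted p 0.0486). On the CPM scale, which gives long genes more weight, FN1 made up 79.0% to 93.4% of the sum of the 10 genes, a sum that ran from 3179.8 to 7576.6 CPM in RPMI plus B27 and from 544.0 to 1156.5 CPM in DMEM plus fatty acids. Without FN1 the summed level of the other 9 was 211.3 to 730.4 CPM and 84.0 to 114.4 CPM.

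Upstream sequence of the matrix genes is shown because these 3 were lower together. Windows of the 250 bases before the listed start nearest to the RefSeq gene start (GRCh38.p14) were matched for 8 of the 10 genes, not for THY1 and FAP. For FBN1 that start, 48644970, lies inside the RefSeq gene span, whose 5′ end is 48645709. Bases after the start used were not found in a GENCODE transcript of FBN1, DDR2 or TCF21. Printed are the parts outside the gene's own GENCODE exons, 5′ to 3′ on the gene's strand. Longer GENCODE transcripts of POSTN and FN1 start inside the window, so the last 76 and 104 bases are left out, and the FBN1 window lies in an intron of longer transcripts. Capitals mark matches on either strand to the TATA box TATAAA, the CCAAT box, the GC box GGGCGG, the TEAD core GGAATG or the E-box CAGCTG.
FBN1: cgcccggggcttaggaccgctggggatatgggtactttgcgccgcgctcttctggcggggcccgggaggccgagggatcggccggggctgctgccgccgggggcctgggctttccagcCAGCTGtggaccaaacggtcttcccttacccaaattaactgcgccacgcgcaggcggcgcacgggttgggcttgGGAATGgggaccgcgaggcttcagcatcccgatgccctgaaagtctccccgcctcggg
POSTN: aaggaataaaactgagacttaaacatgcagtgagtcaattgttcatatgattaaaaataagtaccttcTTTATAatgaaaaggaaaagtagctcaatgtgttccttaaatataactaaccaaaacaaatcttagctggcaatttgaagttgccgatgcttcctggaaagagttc
FN1: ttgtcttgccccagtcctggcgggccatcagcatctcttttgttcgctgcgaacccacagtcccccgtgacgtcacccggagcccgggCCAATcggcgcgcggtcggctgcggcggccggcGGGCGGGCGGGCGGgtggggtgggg
These stretches lie on the minus strand at chr15:48644971-48645220, chr13:37598845-37599018 and chr2:215436173-215436318. Over the whole window, 69.6% of bases were G or C for FBN1, 76.4% for FN1, 36.4% for POSTN and 62.8% for S100A4, against a median of 58.0% over 35116 windows. FBN1 had an E-box and a TEAD core starting at positions -132 and -58 from the start used, which lies inside the gene. POSTN had TATAAA at -182 (minus orientation) and at -29, and S100A4 at -31, the last pair outside the printed bases. FN1 had a CCAAT box and 6 GC boxes, some overlapping each other, of which 3 are printed. Of all windows, 10.7% held TATAAA, 32.0% the CCAAT box, 42.6% the GC box, 11.9% the TEAD core and 14% the E-box. Among the 8 genes, 3, 2, 3, 1 and 2 held them in that order. These are matches of letters only.

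**Figure D2:**
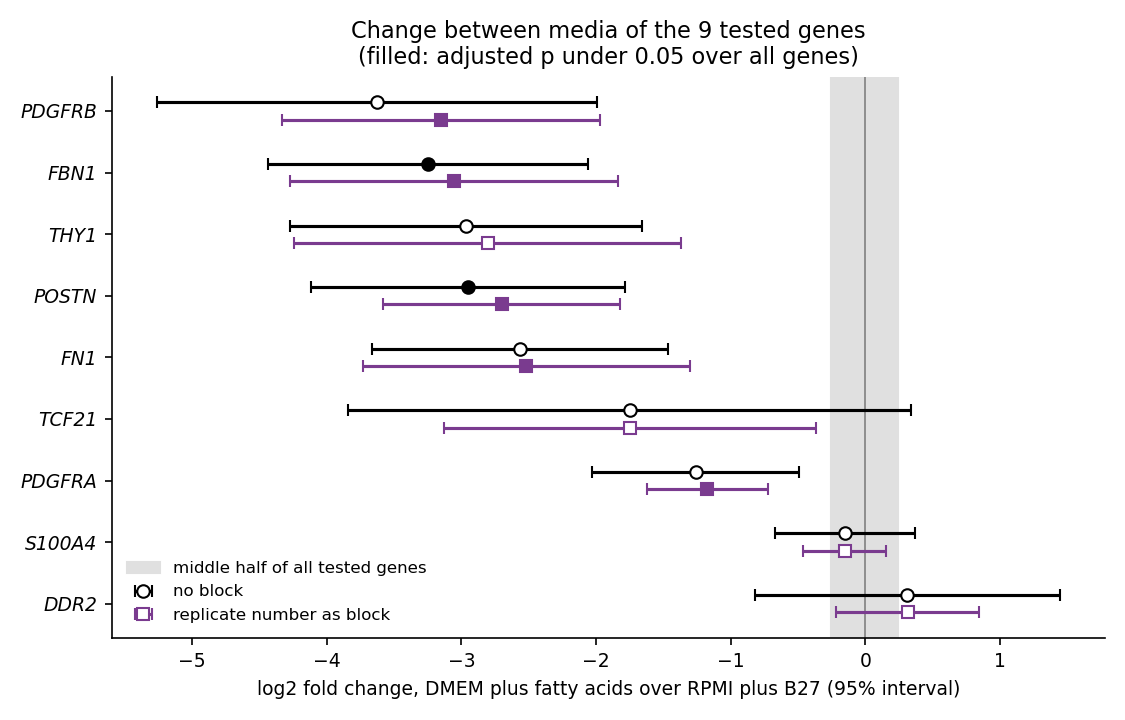
Fitted log2 fold change (below 0: lower in DMEM plus fatty acids) of the 9 tested genes with 95% intervals, without (circles) and with (squares) the replicate number as a block, filled where the adjusted p was under 0.05. FBN1 and POSTN are filled in both fits, PDGFRB, FN1 and PDGFRA with the block only, and the intervals of S100A4 and DDR2 span 0.

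FAP (chromosome 2, 162170684 to 162243445, minus strand), a serine protease of activated fibroblasts, was close to undetected and did not pass the filter. It had 16, 2 and 1 counts in RPMI plus B27 and 0 in each DMEM plus fatty acids library. Over the media, 19 of 79922019 gene counts against 0 of 83385916, taken at the limit of 3 counts for the group, made it at least 6.61-fold lower. Without RPMI plus B27 replicate 1, 3 counts were left and no fold can be given. TCF21 (chromosome 6, 133889113 to 133895537, plus strand) was nearly as scarce, at 29, 3 and 19 counts (1.09, 0.128 and 0.709 CPM) against 3, 1 and 13 counts (0.129, 0.0334 and 0.385 CPM). The media overlapped, since replicate 2 was the lowest library in both and held 3 and 1 counts. Its log2 fold change was -1.75 ± 0.89 (edgeR adjusted p 0.359, interval -3.85 to 0.34). It ran from -2.99 without DMEM plus fatty acids replicate 3 to -1.15 without RPMI plus B27 replicate 1. TARID, an antisense gene that overlaps TCF21 in the annotation, had 1 to 8 counts per library.

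S100A4 (chromosome 1, 153543621 to 153545806, minus strand), also called fibroblast-specific protein 1 although leukocytes and other cells make it too, was nearly even between media. It was at 40.6, 28.3 and 27.8 CPM in RPMI plus B27 and at 35.3, 29.5 and 22.3 CPM in DMEM plus fatty acids. Libraries of the same number lay close to each other. The log2 fold change was -0.15 ± 0.22 (edgeR adjusted p 0.766), with an interval of -0.67 to 0.37. This interval does not reach the fitted change of any of the 6 genes whose media did not overlap, but it overlaps the interval of PDGFRA (-2.03 to -0.49).

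How far the markers differed depended on the replicate number. Within same-number pairs, log2 CPM was lower in DMEM plus fatty acids in all 3 pairs for 7 of the 9 tested genes, as for 24.0% of all tested genes. DDR2 was lower in 1 pair and S100A4 in 2. In all 7, pair 1 had the largest difference, and the median difference over the 9 genes was -3.78, -2.15 and -1.48 in pairs 1, 2 and 3. FBN1 ran from -4.67 to -2.16 over the pairs and PDGFRA from -1.64 to -0.75. RPMI plus B27 replicate 1 was the highest library of its medium for 8 of the 9, beside 40.8% of all tested genes, and DDR2 was the exception. The coefficient of variation was larger in RPMI plus B27 for 6 of the 9 (58.2% of all tested genes).

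**Figure D3:**
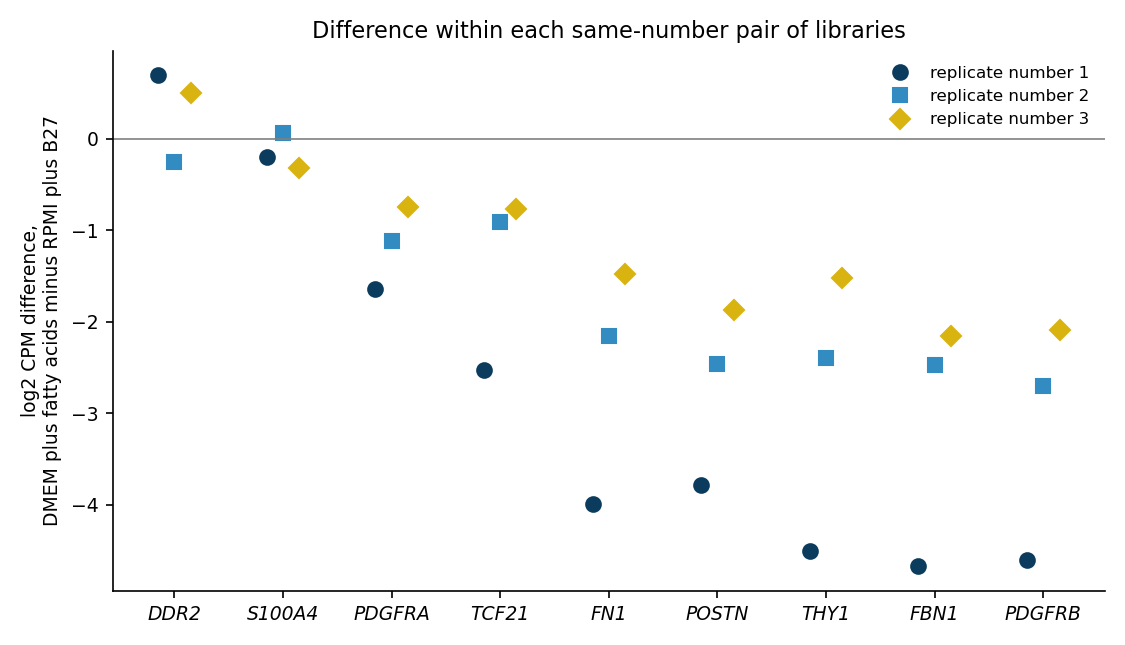
Difference in log2 CPM between the media (DMEM plus fatty acids minus RPMI plus B27) within each same-number pair, for the 9 tested genes in order of their fitted change. Pair 1 lies lowest for the 7 genes with all pairs under 0, while DDR2 and S100A4 have pairs on both sides of 0.

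The balance of the PDGF receptors differed between media without overlap. The ratio of PDGFRA to PDGFRB counts, whose difference between libraries does not depend on gene length, was 0.966, 2.73 and 2.43 in RPMI plus B27 and 7.67, 8.33 and 6.31 in DMEM plus fatty acids. All 3 DMEM plus fatty acids libraries were above all RPMI plus B27 libraries, and RPMI plus B27 replicate 1 was the 1 library with more PDGFRB than PDGFRA counts. On the log2 scale the ratio was 0.89 ± 0.82 and 2.89 ± 0.21 (SD, n = 3 each), a difference of 1.99 with an exact two-sided permutation p of 0.1, the smallest that 3 against 3 libraries can give. Within pairs the difference was 2.99, 1.61 and 1.38 (exact sign-flip p 0.25, the smallest possible with 3 pairs). It was 1.52 without RPMI plus B27 replicate 1.

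**Figure D4:**
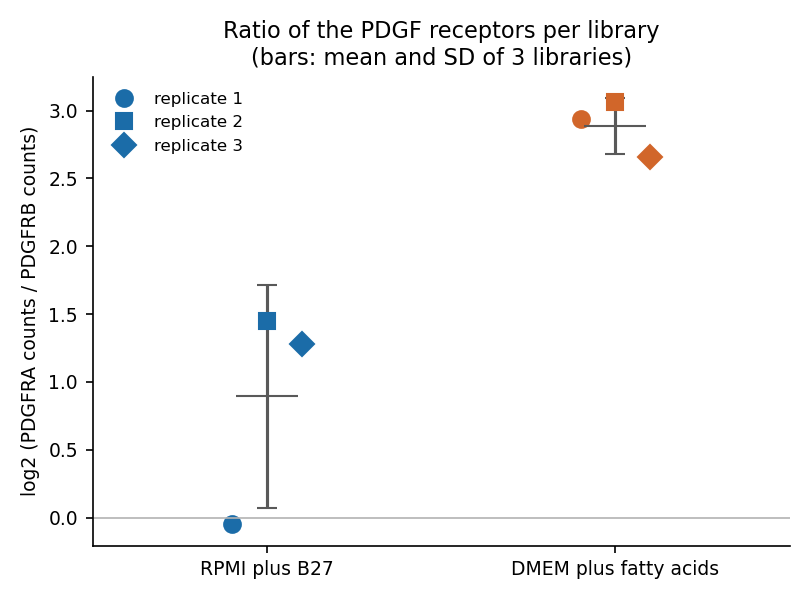
Log2 ratio of PDGFRA to PDGFRB counts in each library by medium, with the mean and SD of 3 libraries. The DMEM plus fatty acids libraries lie between 2.66 and 3.06 and the RPMI plus B27 libraries between -0.05 and 1.45.

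Each gene was also set against the median log2 CPM of the other 8 in the same library. On this log2 scale the difference, DMEM plus fatty acids minus RPMI plus B27, was -2.13 for FBN1, -1.98 for PDGFRB, -1.85 for POSTN, -1.51 for THY1 and -1.42 for FN1. It was 1.76 for DDR2 and 1.26 for S100A4. The media did not overlap for these 7 (exact permutation p 0.1 each, the smallest possible, and 0.129 adjusted over the 9). They overlapped for PDGFRA and TCF21, at differences of -0.04 and -0.10. Of the other tested genes set against the median of the 9, 81.7% were higher without overlap, like DDR2 and S100A4, and 0.696% were lower (82.4% in either direction). Against the sum of the others, which is mostly FN1, the media did not overlap for DDR2 and S100A4 only.

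The order of levels between genes was taken per kilobase of exon (union of the GENCODE v29 exons, which may differ from the models the counts were made on). In RPMI plus B27 the order of mean CPM per kilobase was FN1 (244.0), S100A4 (31.5), POSTN (20.6), FBN1 (11.3), PDGFRA (5.22), PDGFRB (4.92), DDR2 (1.22), THY1 (0.868), TCF21 (0.141) and FAP (0.0345). Neighbours from S100A4 to PDGFRB overlapped over libraries, as did DDR2 with THY1 and TCF21 with FAP. In DMEM plus fatty acids the order was FN1 (41.2), S100A4 (28.3), POSTN (2.65), PDGFRA (2.18), DDR2 (1.52), FBN1 (1.18), PDGFRB (0.398), THY1 (0.109) and TCF21 (0.0401), with FAP at 0. There S100A4 overlapped FN1, POSTN overlapped PDGFRA, DDR2 overlapped both PDGFRA and FBN1, and THY1 overlapped TCF21. The range of DDR2 lay below that of PDGFRB in RPMI plus B27 and above it in DMEM plus fatty acids. In RPMI plus B27 the gap was only 1.614 (DDR2 replicate 2) against 1.63 (PDGFRB replicate 3), so it depends on the exon lengths used.

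The 5 other tested genes closest to the median profile of the 9 over the 6 libraries were SERTAD4-AS1, KLF9 (a Krüppel-like transcription factor), P3H3 (a prolyl 3-hydroxylase family member), WDR54 and LOXL3 (a lysyl oxidase-like enzyme). Their root mean square differences from it, in centred log2 CPM, were 0.142 to 0.237, against 0.336 for FN1 and 0.357 for POSTN, the closest of the 9, and 1.46 for DDR2, the farthest. The 5 nearest genes were picked by these same values, so their small distances and lower levels in DMEM plus fatty acids followed from the choice. WDR54 was called (33.6, 17.9 and 13.7 against 5.08, 4.31 and 6.11 CPM, log2 fold change -2.07 ± 0.35, edgeR adjusted p 0.0456). The other 4 had log2 fold changes of -2.54 to -2.05 and edgeR adjusted p values of 0.0584 to 0.0927. SERTAD4-AS1 is an antisense gene at 0.167 to 2.04 CPM, so its counts are uncertain.

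Of 10 genes for PDGF ligands, a PDGF receptor-like protein, DDR1 and collagen-binding integrin subunits, 1 was called, the collagen receptor subunit ITGA11, which fell from 56.4, 36.4 and 26.9 to 3.57, 7.39 and 5.25 CPM (log2 fold change -2.88 ± 0.36, edgeR adjusted p 0.0292). Over all tested genes edgeR called 1.36%. The list's median log2 fold change was -0.39, 6 of the 10 had an unadjusted p under 0.05, and DESeq2 called 3. With the block 3 of the 10 were called, beside 4.78% of all tested genes: ITGA11, the ligand PDGFB (-1.58 ± 0.21, adjusted p 0.0219 with and 0.0705 without the block) and the integrin subunit ITGA1 (-1.49 ± 0.23, 0.0258 and 0.134). PDGFD, a ligand of PDGFRB, was higher in every DMEM plus fatty acids library (362.7, 257.2 and 216.7 against 164.4, 174.7 and 194.4 CPM) but did not pass (edgeR adjusted p 0.163). PDGFD and DDR1, the other discoidin domain receptor (log2 fold change -0.33 ± 0.13), were looked at after their values were seen.

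Around the matrix members, 3 of 17 tested microfibril and elastic fibre genes were called, all lower, with a list median of -0.61. Over all tested genes 1.36% were called, and 4.78% with the block. They were EFEMP1 (fibulin 3, -4.07 ± 0.63), MFAP5 (a microfibril-associated glycoprotein, -2.97 ± 0.52) and ADAMTSL4 (-1.50 ± 0.24), with edgeR adjusted p values of 0.0402, 0.0486 and 0.0420. With the block 4 were called, FBLN1 (fibulin 1) being added. FBN2, the fibrillin of the embryo, had a log2 fold change of -0.04 ± 0.39 beside the -3.25 of FBN1, at 600.8 to 1157.3 CPM in RPMI plus B27 and 646.8 to 1471.0 CPM in DMEM plus fatty acids, and was singled out after its value was seen. All 16 tested fibronectin receptors and matricellular genes had fitted changes below 0, with a median of -1.52, as had 7888 of all 16107 tested genes. TNC (tenascin C, -4.43 ± 0.77), TGFBI (-4.34 ± 0.66) and SPARC (osteonectin, -2.08 ± 0.37) were called, and 9 were called with the block. TNC and SPARC lost their calls in all 6 fits without 1 library and under scaling by total counts (adjusted p 0.0520 and 0.0645), and TGFBI in 5 of the 6.

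Lists around FAP, S100A4 and TCF21 held 0 calls by edgeR without the block, and DESeq2 called 1, 0 and 2 genes in them. Of 7 tested dipeptidyl peptidases and relatives of FAP (median log2 fold change -0.21), 1 had an unadjusted p under 0.05, DPP4 (-3.37 ± 0.67, edgeR adjusted p 0.0640), at 0.638 to 1.24 CPM in RPMI plus B27 and at 0 to 0.148 CPM in DMEM plus fatty acids. DPP8 had -0.22 ± 0.10. Of 7 tested S100 family genes and their partner ANXA2 (median -0.38), 0 had an unadjusted p under 0.05, and S100A10 passed with the block (-1.26 ± 0.15 in that fit, adjusted p 0.0181). Without the block S100A10 had -1.17 ± 0.52 and S100A13 -0.59 ± 0.25. Of 12 tested TCF21 partners and regulators of epicardium-derived cells (median -0.13), 3 had an unadjusted p under 0.05. TBX18 (an epicardial transcription factor, -2.18 ± 0.42, edgeR adjusted p 0.0605) and ID2 (an inhibitor of basic helix-loop-helix factors, 0.72 ± 0.24, 0.182) had the smallest p values. With the block, TBX18 (-2.10 ± 0.32, adjusted p 0.0271), PRRX1 (-1.25 ± 0.24, 0.0446) and ID2 (0.74 ± 0.14, 0.0455) passed.

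**Figure D5:**
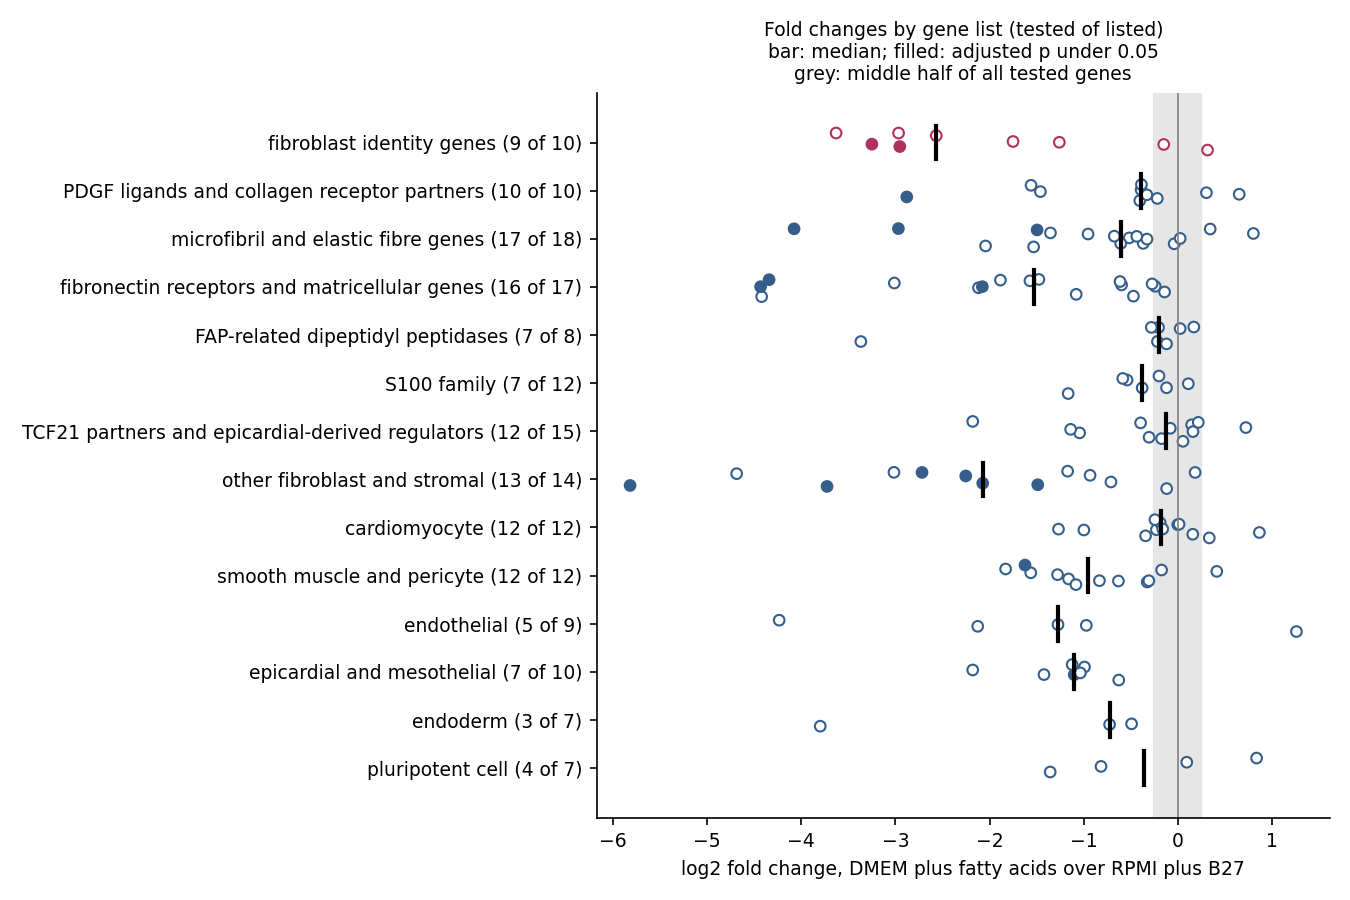
Fitted log2 fold change of each tested gene by list (points, filled where the adjusted p was under 0.05), with the median as a bar and the interquartile range of all tested genes in grey. The fibroblast identity genes have the lowest median, -2.57, followed by the other fibroblast and stromal genes at -2.07, and cardiomyocyte genes lie around the grey band with a median of -0.18.

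The cells were labelled cardiomyocytes, and the 12 cardiomyocyte markers were present in both media, at a summed 30390.4 to 37617.8 CPM in RPMI plus B27 and 24401.3 to 34202.4 CPM in DMEM plus fatty acids. TNNT2 (cardiac troponin T) was at 3001 to 4216 CPM over the 6 libraries. edgeR called 0 of the 12, and DESeq2 called 2 lower and 1 higher. In edgeR 3 had an unadjusted p under 0.05, ACTN2 and MYH7 lower and MYH6 higher. With the block ACTN2 (-1.05 ± 0.21 in that fit, adjusted p 0.0494) and MYH7 (-1.32 ± 0.23, 0.0359) were called. MYH6 rose without overlap between media (0.86 ± 0.27, edgeR adjusted p 0.166) and was singled out after its value was seen. Of 13 other tested fibroblast and stromal genes, 6 were called, all lower, and 9 with the block, beside 1.36% and 4.78% of all tested genes. The 6 were COL1A1 (-2.72 ± 0.38), COL3A1, COL5A1, DCN (-5.81 ± 0.81), LOX and MMP2, with edgeR adjusted p values of 0.0338 to 0.0486. Their list summed to 6563.0 to 10612.1 CPM in RPMI plus B27 and 1831.5 to 3503.5 CPM in DMEM plus fatty acids. VIM (vimentin, -0.12 ± 0.18) and PDPN (podoplanin, 0.18 ± 0.18) overlapped between media, like DDR2 and S100A4, and were singled out after their values were seen.

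Smooth muscle, pericyte and epicardial cells share some of the 10 genes. The summed levels of their markers were also lower in DMEM plus fatty acids without overlap, and their part in the results was not tested. Smooth muscle and pericyte genes summed to 2217.7 to 2703.9 CPM and 725.2 to 1719.7 CPM, with a median of -0.96, and 1 of 12, LMOD1 (-1.62 ± 0.21, edgeR adjusted p 0.0292), was called. With the block CNN1 passed too (adjusted p 0.0399). Without the block 7 of the 12 had an unadjusted p under 0.05, beside 17.7% of all tested genes, and DESeq2 called 3. Epicardial and mesothelial genes summed to 2065.3 to 2680.4 CPM and 1026.0 to 1183.1 CPM, with a median of -1.10, and 1 of 7 tested, KRT8 (-1.10 ± 0.17, edgeR adjusted p 0.0402), was called. With the block TBX18, KRT8, KRT18 and KRT19 were called. Without the block 4 had an unadjusted p under 0.05, and DESeq2 called 5. The keratins KRT8, KRT18 and KRT19, which many epithelia make, carried 85.8% to 95% of the sum. Without them, a split made after the values were seen, the sum was 103.6 to 291.8 CPM and 84.1 to 146.2 CPM and the media overlapped. UPK3B and MSLN were under 0.4 CPM in every library. The defining epicardial gene WT1 was at 0.340 to 0.867 CPM and 0.0669 to 0.148 CPM and did not pass the filter. Endothelial genes overlapped in their sum (63.7 to 250.9 CPM and 120.1 to 471.4 CPM). KDR carried much of this sum, at 27.5, 143 and 238.9 against 114.5, 399.6 and 463.2 CPM. The other 4 tested endothelial genes had fitted changes below 0. In this list CDH5 (11, 8 and 1 counts in RPMI plus B27) and ERG (8, 2 and 1) had no count in DMEM plus fatty acids. EMCN (-4.23 ± 1.01) and TEK (-2.13 ± 0.51) had the smallest p values there (edgeR adjusted p 0.0960 each). Of the 5 tested, edgeR called 0 (3 at an unadjusted p under 0.05, and 3 by DESeq2), and with the block EMCN was called lower and KDR (1.49 ± 0.21 in that fit, adjusted p 0.0245 with and 0.434 without the block) higher.

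Blood and macrophage genes, which include leukocytes that make S100A4, summed to 1.66 to 2.22 CPM and 1.17 to 1.85 CPM. PTPRC had no count in RPMI plus B27, and CD163, TYROBP and AIF1 had none in DMEM plus fatty acids. Each of them had at most 1 count in any library. CD68 (-0.37 ± 0.40) was the 1 gene of this list tested. Neural crest and glia genes summed to at most 1.43 CPM in a library, with FOXD3 at 0 in all 6. Endoderm genes summed to 15.9 to 112.9 CPM and 7.75 to 31.9 CPM, and AFP (-3.80 ± 1.86) and APOA1 had the smallest p values of the 3 tested, with AFP passing with the block (-4.09 ± 0.61, adjusted p 0.0255). Pluripotent cell genes, given because stem cells also carry THY1, summed to 17.5 to 58.2 CPM and 25.4 to 62.4 CPM. TDGF1 carried most of this sum, at 14.6, 57.05 and 52.8 against 24.2, 61.4 and 46.9 CPM. Each other gene of the list was at no more than 0.904 CPM in any library. POU5F1 was at no more than 0.678 CPM. NANOG had 1, 0 and 0 counts in RPMI plus B27 and no count in DMEM plus fatty acids, too few to compare the media. DPPA4 (-0.82 ± 0.40) and POU5F1 (-1.36 ± 0.71) were smallest in p. In these 4 lists edgeR called 0 genes, 0 had an unadjusted p under 0.05, and DESeq2 called 0.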

How the data were processed

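RNA sequencing libraries of 6 cultures were analysed, 3 per medium, prepared from DNase-treated RNA by a stranded mRNA protocol, as the labels state. The authors deposited unnormalized counts for each gene symbol in each library. STAR, HTSeq and hg38 are named in the submitters' processing notes. Versions, the gene annotation and the strand setting are not given in the sources used here, and antisense overlaps are therefore uncertain. Rows that name no gene (12.8% to 15.6% of a library) were left out.

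edgeR 4.0.16 (R 4.3.3) kept 16107 genes by filterByExpr (minimum count 10, minimum total 15), scaled by TMM and ran the quasi-likelihood test without covariates. p values were adjusted by Benjamini-Hochberg over all tested genes (threshold 0.05), and each SE was derived from the F statistic. Single CPM are TMM-scaled. log2 CPM used a prior count of 2. A count of 0 was read as allowing 3 counts. Alternatives were other scalings and filters, DESeq2 1.42.0, the replicate block and leaving out each library.

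Same-number libraries deviated together from their medium's mean (correlation across genes 0.313, 0.428 and 0.365, against -0.242 to -0.136 for other numbers). The numbers were therefore taken as pairs in the block fit and within-pair differences, while the main test left them out. Since each medium was centred on its own mean, positive values for same numbers bring negative ones for other numbers. What a number stands for is not labelled. If replicates share a culture, p values measure technical spread.

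The members, the 6 pathway and 9 marker lists and the naming rule were chosen with earlier results of these data known. Named are the members, every called gene of a list or else its 2 smallest p values, and the 5 nearest profiles. Genes passing with the block only were named after their values were seen. Single genes of the neural crest and glia list that the naming rule would give are not reported here.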

Additional observations from a re-analysis of the deposited data

How the results depend on the processing

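The count of 219 genes over the whole table became 1232 with DESeq2, 539 without a filter, 119 with at least 10 counts in every library and 770 with the replicate block. It ran from 3 to 131 when 1 library was left out. Lower and higher genes were 863 and 369 with DESeq2, 413 and 126 without a filter, and 90 and 29 with at least 10 counts in every library. DESeq2 and the fit without a filter took in genes outside the main filter. Shares of the genes tested are not given for these 3 fits, nor for the lists under DESeq2. Of the members, 6 were called by DESeq2 (FBN1, FN1, PDGFRA, PDGFRB, POSTN and THY1), 6 without a filter, 1 with at least 10 counts in every library (FBN1, of 7 tested), 5 with the replicate block and 0 to 4 when 1 library was left out. PDGFRA, PDGFRB and FN1 gained and no member lost its call with the block. The members' median log2 fold change stayed between -2.98 and -2.03 under all 12 alternatives. Genes called in the pathway lists numbered 7 and became 4 under scaling by total counts, 24 with DESeq2, 19 without a filter, 4 with at least 10 counts in every library, 20 with the block and 0 to 6 when 1 library was left out. Those in the marker lists numbered 8 and became 23 with DESeq2, 13 without a filter, 4 with at least 10 counts in every library, 20 with the block and 0 to 4 when 1 library was left out. Members not overlapping between media relative to the others numbered 7 and became 2 against the sum of the others.

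Scaling by total counts shifted the all-gene median from 0.01 to 0.12 (log2), and the lower calls from 172 of 219 to 128 of 202. Among the 106 single values of the 9 tested members under the alternatives, 77 kept direction and side of the threshold, 11 lost and 14 gained the call, and 4 changed sign, none of them called. Among 411 values of the 35 other named genes, 98 lost and 26 gained the call. Of the 16 called ones, each lost its call in at least 1 fit without a library, and 7 did in all 6. The 4 sign changes among members were DDR2 without RPMI plus B27 replicate 3 (-0.03) and DMEM plus fatty acids replicate 1 (-0.17), in a range of -0.17 to 0.62 over libraries left out, and S100A4 without RPMI plus B27 replicate 1 (0.046) and DMEM plus fatty acids replicate 3 (0.01), in a range of -0.32 to 0.046. Relative to the other members, PDGFRA changed sign without RPMI plus B27 replicate 2 (range -0.21 to 0.17) and against the sum (1.31), and TCF21 without RPMI plus B27 replicates 1 and 3 (0.03 and 0.43), without DMEM plus fatty acids replicate 2 (range -0.77 to 0.49) and against the sum (1.05). The cause of these shifts was not tested. Depth limits FAP and TCF21, at 0 to 29 counts per library.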
